A study of Mus musculus with 6 samples.

Results

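Voltage-gated sodium channels were examined through 9 of the 24264 genes in the expression table, taken from a list of alpha and beta subunits of sensory neurons. The 6 alpha subunit genes were Scn1a, Scn3a, Scn8a, Scn9a, Scn10a and Scn11a, and the 3 beta subunit genes were Scn2b, Scn3b and Scn4b. RNA sequencing had been carried out on lumbar dorsal root ganglia of mouse embryos at E12.5, the clusters of sensory neurons and glia beside the lumbar spinal cord. In the 3 miR_cKO libraries (miR_cKO 1 to 3) both alleles of the miR-183, miR-96 and miR-182 cluster carried loxP sites (miR-183-96-182-flox/flox) and were deleted by Wnt1-Cre. The 3 control libraries were labelled control, with controls 1 and 3 titled Wnt-Cre and control 2 titled WT, so the Cre transgene was shared with 2 of the 3 controls. All embryos were of a mixed C57/Bl6 x 129/SvEv background. Wnt1-Cre acts in the neural crest, from which both the sensory neurons and the glia of the ganglion derive, and not in trunk muscle. The labels do not say whether a library pooled several embryos or whether litters differed, so p-values measure only the spread between these libraries. Control 2 by its title, and miR_cKO 1 by the sex-linked genes given below, came from other embryos than the rest of their groups. Between controls 1 and 3, and between miR_cKO 2 and 3, the spread may be technical.

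A voltage-gated sodium channel consists of a large alpha subunit, which forms the ion-conducting pore and opens when the membrane depolarises, and of smaller beta subunits, single-pass membrane proteins that modulate gating and surface expression. In sensory neurons the channels start and carry the action potential. Channels built on Scn1a, Scn3a, Scn8a and Scn9a are blocked by nanomolar tetrodotoxin, whereas those built on Scn10a and Scn11a resist it and are found mainly in pain-sensing neurons. MicroRNAs pair through their seed, the bases near their 5′ end, with matching stretches in the 3′ UTR of a message and lower its stability and translation.

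Each library held an estimated 20.3 to 24.4 M reads (M, mega). Muscle RNA differed between the libraries: the summed level of 9 muscle genes was 33.7 to 47.5 RPKM in miR_cKO and 35.3 to 206 RPKM in controls, with 206 RPKM in control 2 and 152 RPKM in control 3. The 7 mesenchyme genes summed to 194 to 293 RPKM in miR_cKO and to 221 to 414 RPKM in controls. All 9 sensory neuron markers in the table were above 0 in each library, while the 5 spinal cord genes summed to 0.204 to 4.72 RPKM in miR_cKO and to 0.196 to 1.45 RPKM in controls, with Mnx1 listed at 0 throughout. The female-specific RNA Xist was at 96.0 RPKM in miR_cKO 1 and at most 0.0890 RPKM in the other 5 libraries, and 4 Y-linked genes were at most 0.0416 RPKM in miR_cKO 1 and at least 5.74 RPKM elsewhere. The precursors of the deleted microRNAs were listed at 0 in all 6 libraries, and poly(A) libraries hold few of them, so they check nothing about the labels.

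No difference between miR_cKO and control ganglia beyond the spread between libraries was found for any of the sodium channel genes. Of the 9 genes, 7 reached 1 RPKM (reads per kilobase of transcript and per M mapped reads) in at least 3 libraries and were tested. Of these, 0 passed (limma on log2(RPKM + 1), Benjamini-Hochberg adjusted p under 0.05), and 0 had an unadjusted p under 0.05. The same threshold was passed by 0.061% of all 13118 genes tested, 0.0534% higher and 0.00762% lower in miR_cKO. For all 9 the value ranges of the groups overlapped, while the groups did not overlap for 10.9% of the genes tested, 4.63% higher and 6.24% lower in miR_cKO. The log2 change was above 0 for Scn2b, Scn3a, Scn1a and Scn8a and below 0 for Scn9a, Scn3b and Scn10a, with a median of 0.11; over all genes tested the median was -0.024, and 40.4% were above 0. The sign was the same in all 16 alternatives for Scn2b, Scn3b and Scn10a, and in 12 to 14 of them for the other 4. Some of this agreement was fixed in advance. Dropping the filter, dropping the trend or adding a block for the replicate number leaves the estimated change as it was. Scn11a and Scn4b stayed below 1 RPKM in every library. In whole ganglia, fewer cells of a type and less RNA per cell cannot be told apart.

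**Figure D1:**
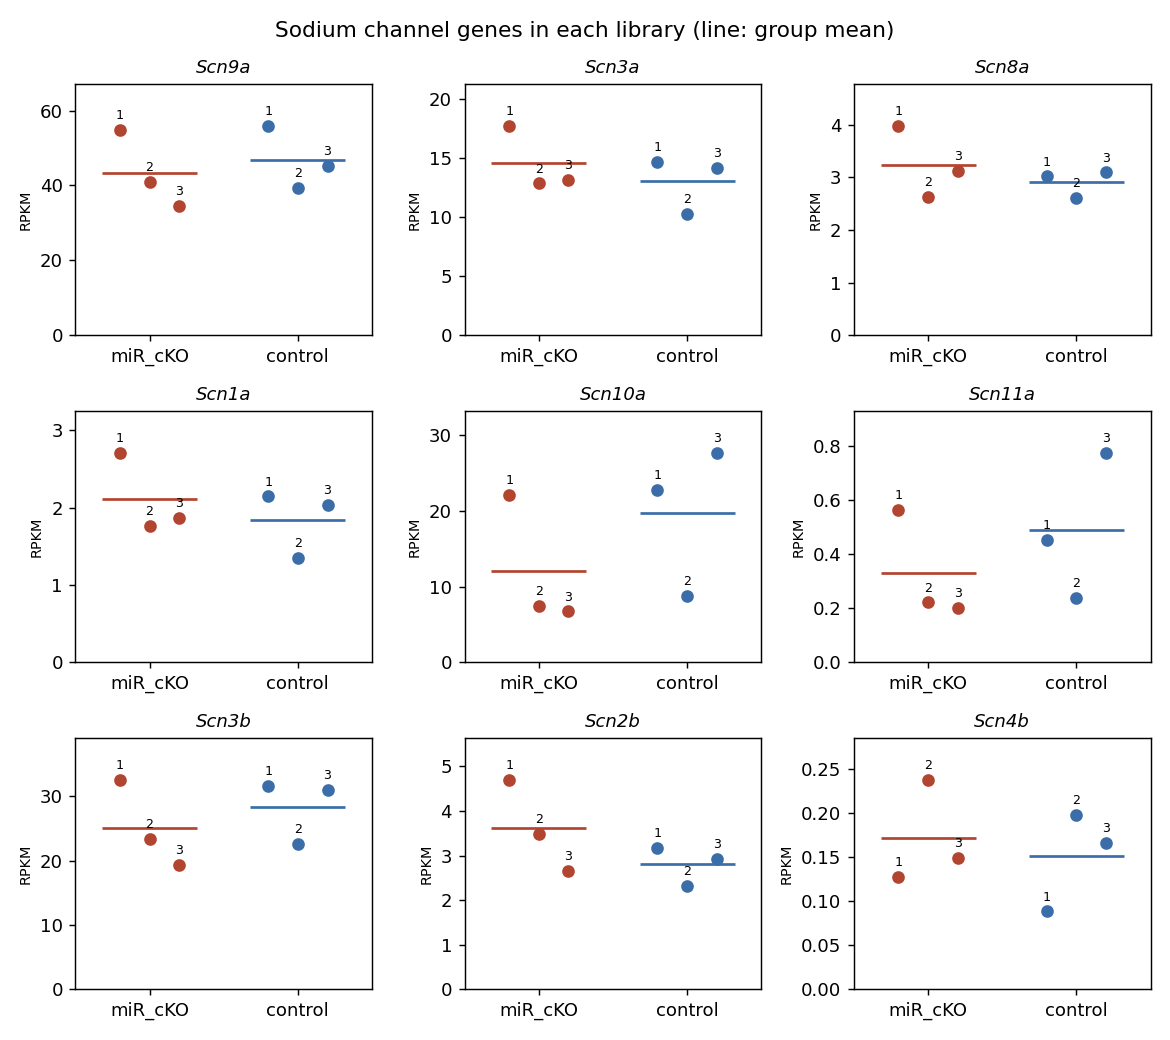
RPKM of the 9 sodium channel genes (y axis, from 0, own scale for each gene) in the 3 miR_cKO and the 3 control libraries; each point is a library with its replicate number and the line is the group mean. The groups overlap for every gene, and Scn10a has values near 22 to 28 RPKM in miR_cKO 1 and in controls 1 and 3 but below 9 RPKM in the other 3 libraries.

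Levels per length spanned a wide range, from Scn9a at a mean of 45.1 RPKM over the 6 libraries to Scn4b at 0.162 RPKM. Scn9a was above every other sodium channel gene in each library, and its lowest library, 34.6 RPKM, exceeded the highest value of any other, 32.6 RPKM for Scn3b. Scn3b followed with a mean of 26.7 RPKM, then Scn10a at 15.9, Scn3a at 13.8, Scn2b at 3.21, Scn8a at 3.07, Scn1a at 1.98 and Scn11a at 0.409 RPKM. Scn10a, with a range of 6.72 to 27.7 RPKM, and Scn3a could not be ranked, and neither could Scn2b and Scn8a, since the order turned round between libraries, 3 of 6 each way. Scn3b exceeded Scn10a, Scn3a exceeded Scn2b, and Scn8a exceeded Scn1a in 6 of 6 libraries. Of genes outside the list, Scn7a, which encodes the atypical sodium channel Nax, had a mean of 14.0 RPKM and Scn2a one of 5.78 RPKM. Scn4a, the skeletal muscle channel, was at 0.0383 RPKM.

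Scn9a encodes Nav1.7, the channel that amplifies small depolarisations in nociceptor endings and whose loss in people abolishes pain. It lies at chr2:66480080-66634962 on the minus strand (mm10, GENCODE M21). Its level was 54.8, 40.9 and 34.6 RPKM in miR_cKO 1 to 3, against 56.0, 39.3 and 45.3 RPKM in controls 1 to 3. The lowest library was a miR_cKO one and the highest a control, but miR_cKO 1 was close to the top. The log2 change was -0.12 (SE 0.19, 95% interval -0.57 to 0.33, limma adjusted p = 0.9996).

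Scn3a encodes Nav1.3, the form that dominates embryonic neurons and declines after birth. It was at 17.7, 12.8 and 13.1 RPKM in miR_cKO 1 to 3, against 14.6, 10.2 and 14.1 RPKM in controls 1 to 3. The highest library was miR_cKO 1 and the lowest was control 2, with the other 4 between them. The log2 change was 0.15 (95% interval -0.25 to 0.55, limma adjusted p = 0.9996), and it was 0.0024 without control 2 and 0.014 without miR_cKO 1. It is transcribed from chr2:65457118-65567627, minus strand, in the same gene cluster as Scn1a and Scn9a.

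Scn8a encodes Nav1.6, the channel of nodes of Ranvier in mature myelinated axons, and Scn1a encodes Nav1.1, found in large sensory neurons and in many central neurons. Scn8a was at 3.98, 2.62 and 3.11 RPKM in miR_cKO 1 to 3, against 3.02, 2.61 and 3.09 RPKM in controls 1 to 3. Its 3 control values were closer together than its 3 miR_cKO values (SD 0.262 RPKM in controls, 0.690 RPKM in miR_cKO). Scn1a was at 2.71, 1.76 and 1.86 RPKM in miR_cKO 1 to 3, against 2.14, 1.35 and 2.03 RPKM in controls 1 to 3. Its libraries ranked as those of Scn3a did, with miR_cKO 1 highest and control 2 lowest. The log2 changes were 0.11 for Scn8a (95% interval -0.22 to 0.44) and 0.13 for Scn1a (95% interval -0.27 to 0.53), each with a limma adjusted p of 0.9996. Scn1a lies at chr2:66270778-66440840 on the minus strand and Scn8a, alone among the alpha subunits listed, on chromosome 15 (chr15:100869858-101045938, plus strand).

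Scn10a, which encodes the tetrodotoxin-resistant channel Nav1.8 of nociceptors, varied most. Its level was 22.1, 7.45 and 6.72 RPKM in miR_cKO 1 to 3, against 22.8, 8.72 and 27.7 RPKM in controls 1 to 3. Values near 22 RPKM or above occurred in both groups, in miR_cKO 1 and in controls 1 and 3, and values below 9 RPKM also occurred in both, in miR_cKO 2 and 3 and in control 2. The mean was 12.1 ± 8.67 RPKM in miR_cKO and 19.7 ± 9.83 RPKM in controls (SD, n = 3 each). The log2 change was -0.71 (SE 0.54, 95% interval -1.98 to 0.56, limma adjusted p = 0.9996). Its SD within groups, 0.86 on the log2(RPKM + 1) scale, was exceeded by 0.557% of the genes tested, whose median SD was 0.128. Single libraries moved the change by over 1.5 times: it was -1.22 without miR_cKO 1, -1.19 without control 2, -0.43 without miR_cKO 3 and -0.41 without control 3, and it was -1.27 with muscle RNA as a covariate and -1.12 with array weights. The summed nociceptor markers, 207 to 468 RPKM in miR_cKO and 246 to 444 RPKM in controls, were high and low in the same libraries, and their part in the result was not tested. None of these fits called Scn10a, and its limma adjusted p was 0.457 to 1 over all 16 alternatives.

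Scn11a, the neighbour of Scn10a on chromosome 9, encodes Nav1.9, a slowly inactivating tetrodotoxin-resistant channel that sets the excitability of nociceptors. It lies at chr9:119753759-119825456, upstream of Scn10a at chr9:119608456-119719322, both on the minus strand. Its level was 0.563, 0.222 and 0.203 RPKM in miR_cKO 1 to 3, against 0.454, 0.239 and 0.776 RPKM in controls 1 to 3. The 3 higher and the 3 lower libraries were those of Scn10a. These values rest on about 25 to 93 reads per library. No difference was found by the exact permutation test on log2(RPKM + 1) (two-sided p = 0.5, where the smallest possible p is 0.1).

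Among the beta subunits, Scn3b was the main message. Scn3b encodes the non-covalently bound beta3 subunit, and it was at 32.6, 23.4 and 19.4 RPKM in miR_cKO 1 to 3, against 31.6, 22.6 and 31.0 RPKM in controls 1 to 3. As for Scn10a, miR_cKO 1 and controls 1 and 3 were high and the other 3 libraries low. Its log2 change was -0.19 (95% interval -0.67 to 0.30, limma adjusted p = 0.9996). Leaving out miR_cKO 1 gave -0.38, leaving out control 2 gave -0.34, and leaving out miR_cKO 3 gave -0.024.

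Scn2b encodes the beta2 subunit, which is joined to the alpha subunit by a disulphide bond. It was at 4.70, 3.49 and 2.67 RPKM in miR_cKO 1 to 3, against 3.18, 2.32 and 2.93 RPKM in controls 1 to 3. The 2 highest libraries were miR_cKO ones, while miR_cKO 3 lay among the controls. The log2 change, 0.26 (SE 0.18, 95% interval -0.16 to 0.69, limma adjusted p = 0.9996), was the highest of the 7 genes tested. Without miR_cKO 3 it was 0.42, and without miR_cKO 1 it was 0.098.

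Scn4b encodes the beta4 subunit, which supports resurgent sodium current in large sensory neurons of adult animals. It was near the limit of detection, at 0.128, 0.238 and 0.150 RPKM in miR_cKO 1 to 3, against 0.0887, 0.198 and 0.167 RPKM in controls 1 to 3, on about 10 to 26 reads per library. Replicate 2 was the highest in both groups (two-sided exact permutation p = 0.8). Scn2b and Scn4b lie side by side on the plus strand of chromosome 9 (chr9:45117782-45130070 and chr9:45138395-45154152), with Scn3b on the same chromosome at chr9:40269217-40291618. Scn4b was below Scn2b in 6 of 6 libraries.

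**Figure D2:**
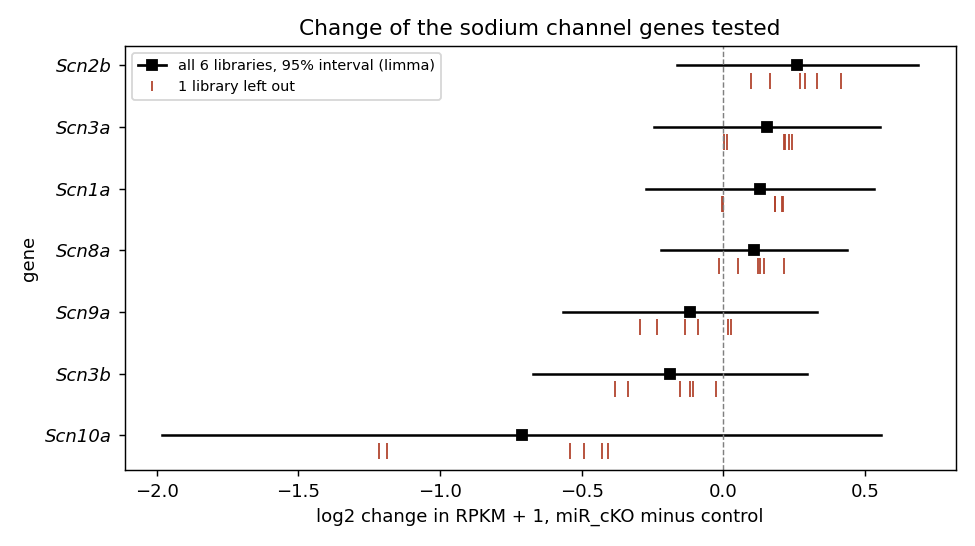
Log2 change of RPKM + 1, miR_cKO minus control (x axis), for the 7 sodium channel genes tested (y axis); squares with bars are the fit on all 6 libraries with its 95% interval, and red ticks are fits with 1 library left out. Every interval includes 0, and that of Scn10a, -1.98 to 0.56, is the widest.

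Because levels per length can be summed within a library, the make-up of the alpha subunit messages was compared as well. Scn9a held 53.8, 62.2 and 58.0% of the summed RPKM of the 6 alpha subunit genes in miR_cKO 1 to 3, and 56.6, 62.9 and 48.7% in controls 1 to 3. Scn10a and Scn11a, the tetrodotoxin-resistant channels of this list, together held 22.3, 11.7 and 11.6% in miR_cKO 1 to 3, and 23.5, 14.4 and 30.6% in controls 1 to 3. Each of the lower shares belonged to a library with low Scn10a, which follows from Scn10a making up nearly all of this share. The mean share was 15.2 ± 6.13% in miR_cKO and 22.8 ± 8.14% in controls (SD, n = 3 each, two-sided exact permutation p = 0.2). The difference of -7.62 percentage points was -3.73 without control 3 and -11.8 without control 2.

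In these libraries Scn3a held a larger part of the alpha subunit messages in miR_cKO than in controls, without overlap, although its RPKM overlapped. Its share was 17.4, 19.5 and 22.0% in miR_cKO 1 to 3, and 14.8, 16.4 and 15.2% in controls 1 to 3. Scn1a held 2.66, 2.68 and 3.12% in miR_cKO 1 to 3, and 2.16, 2.16 and 2.18% in controls 1 to 3. Among the 4 tetrodotoxin-sensitive genes alone the share of Scn3a separated the groups only narrowly. It was 22.4, 22.1 and 24.9% in miR_cKO 1 to 3 (23.1 ± 1.57%). In controls 1 to 3 it was 19.3, 19.1 and 21.9% (20.1 ± 1.55%). The lowest miR_cKO value, 22.07%, and the highest control value, 21.89%, lay closer together than either SD. The share of Scn1a overlapped there. The ratio of Scn9a to Scn3a was 3.09, 3.19 and 2.63 in miR_cKO 1 to 3, and 3.82, 3.84 and 3.20 in controls 1 to 3. Its values in miR_cKO 2, 3.19, and control 3, 3.20, nearly met. Scn3b held 86.9 ± 0.567% of the beta subunit RPKM in miR_cKO and 90.5 ± 0.468% in controls (SD, n = 3 each). Of 16 such measures, which overlap in content and of which 15 were chosen after the values were seen, 5 separated the groups without overlap. Several of the 5 rest on Scn3a. In RPKM, 10.9% of all genes tested separated the groups. For each of the 5 measures the two-sided exact permutation p was 0.1, the smallest possible, and 0.32 after Benjamini-Hochberg adjustment over the 16 measures.

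**Figure D3:**
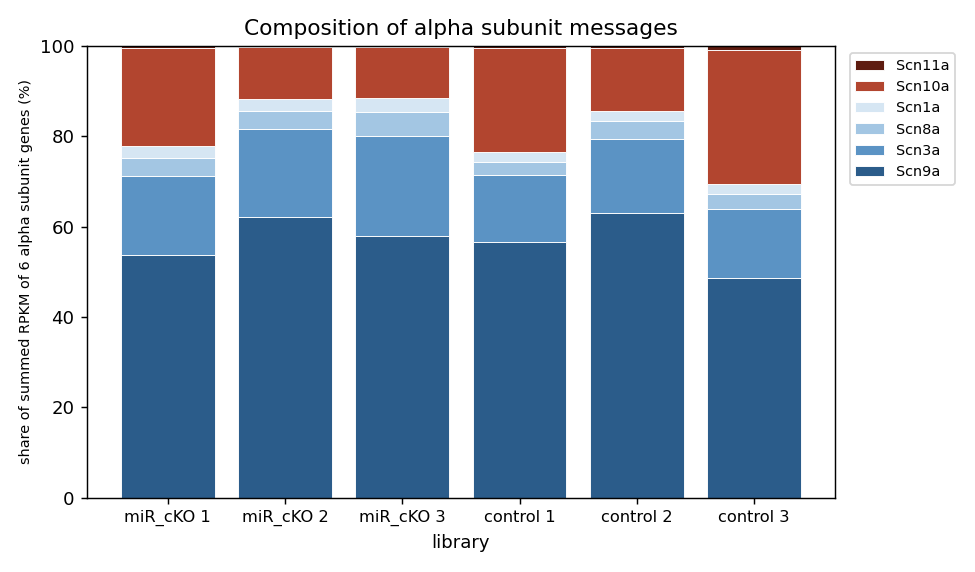
Share of each alpha subunit gene in the summed RPKM of the 6 genes (y axis, percent) in every library (x axis, miR_cKO 1 to 3, then controls 1 to 3). Scn9a takes 48.7 to 62.9%, and the red parts, Scn10a and Scn11a, are smallest in miR_cKO 2 and 3 and control 2; the Scn3a part is 17.4% or more in miR_cKO and 16.4% or less in controls.

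The mature microRNAs of the deleted cluster are given here with the seed, bases 2 to 8, in capitals, since the seed decides which stretches of the channel messages match (RefSeq, GRCm38.p6, chromosome 6, minus strand). The seeds of miR-96-5p and miR-182-5p share UUGGCA, and those of miR-183-5p and miR-96-5p share UGGCAC.
mmu-miR-183-5p: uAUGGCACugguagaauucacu
mmu-miR-96-5p: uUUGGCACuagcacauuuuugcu
mmu-miR-182-5p: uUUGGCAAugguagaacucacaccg

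Matches were searched in each gene's 3′ UTR, in 1 transcript per gene (GENCODE M21, mm10, the transcript's own strand): GTGCCAT and TGCCATA for miR-183, GTGCCAA and TGCCAAA for miR-96, TTGCCAA and TGCCAAA for miR-182, so that TGCCAAA counts for both miR-96 and miR-182. Of the 9 sodium channel genes, 6 held a match, as did 33.6% of 12029 tested genes with a 3′ UTR. The sodium channel genes have long UTRs, and among those of 2000 bases or more 5 of 7 held a match, against 64.5% of the 3396 tested genes with UTRs of that length. Scn10a, Scn3b and Scn4b held none. Scn11a held 1 match to miR-183, Scn3a and Scn8a held 1 to miR-183 and 1 to miR-96 and miR-182 together, Scn1a and Scn9a held 1 of the joint kind, and Scn2b held 2 of the joint kind. An 8mer, the longest kind of match, occurred once, for miR-182 in Scn8a (TTGCCAAA, chr15:101043633-101043640, plus strand).

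In Scn1a, Scn3a and Scn9a the joint match lay close behind the stop codon, at bases 85 to 91, 139 to 145 and 79 to 85 of the 3′ UTR. The paralog Scn2a, which is not on the list, has it at bases 115 to 121. The 30 bases around it are printed with the match in capitals, to show what these messages have in common.
Scn1a: taagaagtcaaTGCCAAActgactgttttt
Scn3a: ggagaggtccaTGCCAAActgactgtttca
Scn9a: acggaggtctaTGCCAAActctttttatca
Scn2a: caggaggtctaTGCCAAActgactgtttct

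Counted position by position, the stretches of Scn1a and Scn3a were identical at 24 of 30 bases. Those of Scn3a and Scn9a were identical at 21 of 30 and those of Scn1a and Scn9a at 18 of 30. Scn2a shared 25 of 30 with both Scn1a and Scn3a. Each count includes the match, which is the same in all by selection. The positions of the matches on mm10 are chr2:66272794-66272800 for Scn1a, chr2:65460412-65460418 for Scn3a, chr2:66483333-66483339 for Scn9a, all on the minus strand, and chr2:65764944-65764950 on the plus strand for Scn2a. The stretches of Scn2b, around the first of its 2 joint matches, and of Scn8a shared fewer bases with these.
Scn2b: gagtcagggacTGCCAAAtcggtactatag
Scn8a: gtggcagggctTTGCCAAAtattcatgaag

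The printed stretch of Scn2b, with its match at bases 1672 to 1678, shared 12 to 14 of 30 bases with those of Scn1a, Scn3a, Scn9a and Scn2a. The stretch around its other joint match, at bases 1993 to 1999, was not compared. That of Scn8a, aligned on TGCCAAA, shared 12 to 16 of 30 with them, the most with Scn9a. Set beside the changes, the 5 tested genes with a match had log2 changes of 0.26 for Scn2b, 0.15 for Scn3a, 0.13 for Scn1a, 0.11 for Scn8a and -0.12 for Scn9a. The 2 tested genes without one had -0.19 for Scn3b and -0.71 for Scn10a. None of these changes passed, no test was made between the sets, and Scn9a, with a match like that of Scn3a, lay below 0. A match of letters does not show that a microRNA acts there.

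**Figure D4:**
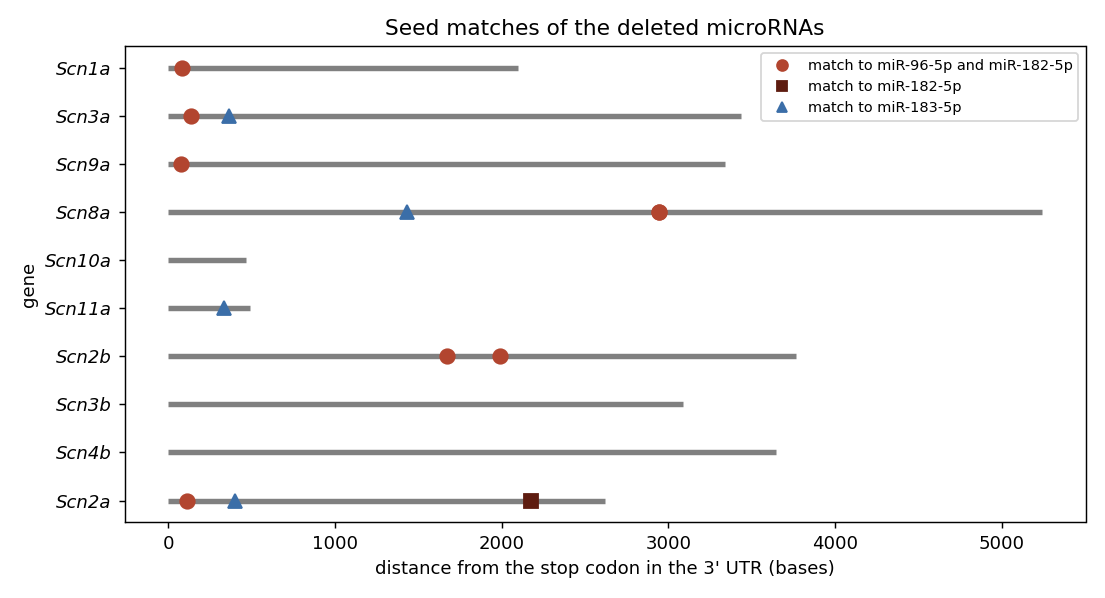
Seed matches of the deleted microRNAs in the 3′ UTR (grey bars, length in bases from the stop codon on the x axis) of the 9 sodium channel genes and of Scn2a (y axis). Matches shared by miR-96-5p and miR-182-5p end at base 145 or earlier in Scn1a, Scn3a, Scn9a and Scn2a, and Scn10a, Scn3b and Scn4b have no match.

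Among the family genes outside the list, Scn2a (older symbol Scn2a1), which encodes Nav1.2 of central axons, had separate groups, as did 10.9% of all genes tested. It was at 8.31, 6.08 and 6.09 RPKM in miR_cKO 1 to 3, against 5.43, 3.64 and 5.11 RPKM in controls 1 to 3. The lowest miR_cKO library lay above the highest control. The log2 change was 0.45 (SE 0.17, 95% interval 0.058 to 0.85) but did not pass (limma adjusted p = 0.855; unadjusted 0.0301), with an adjusted p of 0.466 to 1 over the alternatives and a log2 change of 0.24 with muscle RNA as a covariate and 0.27 without controls 2 and 3. Scn4a, which was too low to be tested, had separate groups in the opposite direction, at 0 to 0.0224 RPKM in miR_cKO and at least 0.0287 RPKM in controls, highest in controls 2 and 3, which held the most muscle RNA. Scn7a had a log2 change of -0.25.

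Partners of sodium channels were taken as a list of 22 genes for trafficking, anchoring and modulation and the 5 other family genes, 27 in all. Of the 22 tested, 0 passed in either direction (limma adjusted p under 0.05; 2 had an unadjusted p under 0.05, as did 677 of the 13118 genes tested), 11 were above 0 and 11 below, and the median log2 change was -0.0045. Unc79, a subunit of the sodium leak channel complex, had the smallest p: it was at 6.39, 4.59 and 4.80 RPKM in miR_cKO 1 to 3, against 2.99, 2.28 and 3.00 RPKM in controls 1 to 3. Its groups were separate, and its log2 change of 0.73 did not pass (SE 0.14; limma adjusted p 0.246, and 0.144 to 1 over the alternatives). Scn2a was next, and then the axonal adhesion molecules L1cam and Nfasc, with log2 changes of 0.38 and 0.23. Nalcn, the pore of the same leak channel, had a log2 change of -0.018, and Ank3, which anchors sodium channels at the axon initial segment, one of -0.016.

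Across the libraries the sodium channel genes followed different courses. For Scn10a the libraries fell into a high and a low set that each held both genotypes, so a correlation mainly reflects that gap, and the values of r (Pearson, over 6 libraries, log2(RPKM + 1)) serve only to describe likeness. Scn3b, with r = 0.956, and Scn9a, with r = 0.838, were most like Scn10a among the sodium channel genes tested, and Scn2b was least, with r = 0.429. Scn1a and Scn3a followed nearly the same course, with r = 0.998. They lie in one gene cluster with Scn9a, whose r was 0.721 with Scn1a and 0.708 with Scn3a.

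Among up to 9007 other genes with a mean of at least 5 RPKM, those most like Scn10a were Tmem65 (r = 0.995), Fam63b (r = 0.995) and Cacna2d1 (r = 0.994), the last encoding the alpha2delta1 subunit of calcium channels. Cacna2d1 was at 29.7, 19.5 and 19.0 RPKM in miR_cKO 1 to 3, against 30.1, 20.4 and 30.2 RPKM in controls 1 to 3, which shows the same high and low libraries. Most like Scn3b were Gnptab, Fam65b and P2rx3, the last an ATP-gated channel of nociceptors, and most like Scn9a were Mblac2, Usp14 and Mamld1. For Scn3a they were Adcyap1r1, Shisa7 and Atrn, for Scn1a, after Scn3a itself, Adcyap1r1 and Sod2, for Scn8a Mospd2, Ssh2 and Tmem8b, and for Scn2b Fam171a1, Ptprn2 and Rrm2b. With so many genes and 6 libraries, high values of r arise without any relation between the genes.

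The nociceptor marker list moved with Scn10a. Its 8 genes summed to 468, 259 and 207 RPKM in miR_cKO 1 to 3 and to 406, 246 and 444 RPKM in controls 1 to 3, with none at 0 in any library. The transcription factor Runx1 was at 3.98, 1.30 and 1.67 RPKM in miR_cKO 1 to 3 and at 3.45, 1.53 and 4.91 RPKM in controls 1 to 3. It was high in miR_cKO 1 and controls 1 and 3, where Scn10a was high. The sums of the 9 general sensory neuron markers varied less, at 2976, 2596 and 2123 RPKM in miR_cKO 1 to 3 and 2572, 2172 and 2670 RPKM in controls 1 to 3. Single markers of that list differed. Avil was at 22.5, 11.6 and 11.2 RPKM in miR_cKO 1 to 3 and at 19.8, 8.07 and 21.9 RPKM in controls 1 to 3. It was high where Scn10a was high, whereas Pou4f1 was lowest in control 3, at 66.1 RPKM. The 7 proprioceptor and mechanoreceptor markers summed to 70.3 to 83.7 RPKM in miR_cKO and to 72.3 to 79.5 RPKM in controls. These sums hide members that separated the groups in opposite directions, as 10.9% of all genes tested did in either direction. Etv1 was at 6.25, 4.58 and 4.95 RPKM in miR_cKO 1 to 3 and at 10.4, 7.05 and 9.01 RPKM in controls 1 to 3. Ntrk3 was at 9.92, 11.3 and 9.63 RPKM in miR_cKO 1 to 3 and at 8.81, 9.53 and 7.99 RPKM in controls 1 to 3. The other markers of that list overlapped. The 6 glial markers summed to 856 to 968 RPKM in miR_cKO and to 813 to 1083 RPKM in controls.

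Muscle RNA was high in controls 2 and 3, where Scn10a was at 8.72 and 27.7 RPKM. With muscle RNA as a covariate the log2 change of Scn10a was -1.27 (SE 0.66), and scaled to the sensory neuron list in each library it was -0.72 (SE 0.37), against -0.71 in the plain fit. The same covariate gave -0.42 for Scn9a, -0.43 for Scn3b and 0.053 for Scn2b, and none of these passed (limma adjusted p 0.904 to 0.977). The part of nociceptor, muscle and neuron content in the differences between libraries was not tested.

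**Figure D5:**
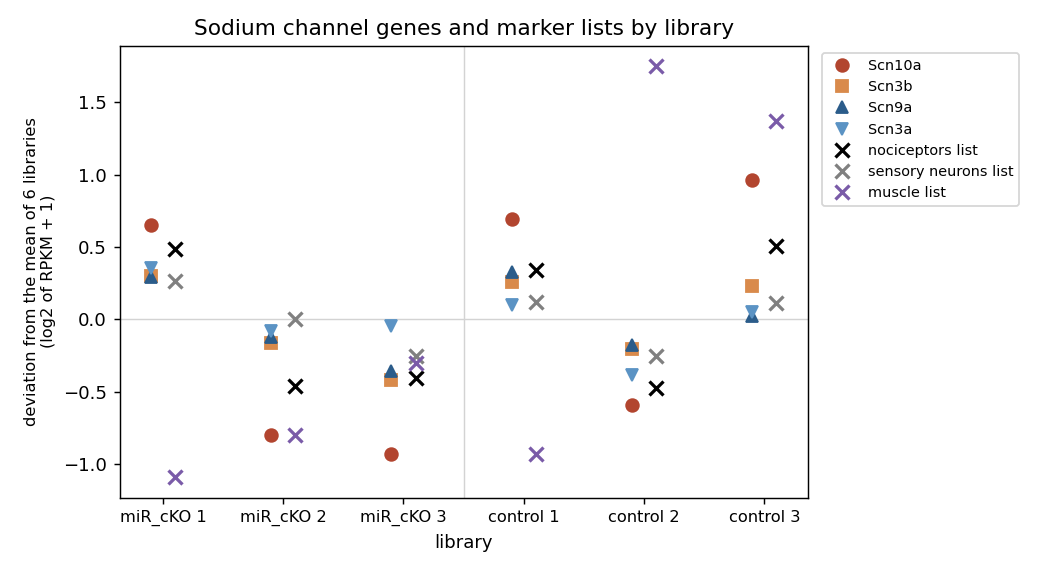
Deviation of each library from the mean of the 6 libraries (y axis, log2 of RPKM + 1) for Scn10a, Scn3b, Scn9a and Scn3a (filled symbols) and for the mean of 3 marker lists (crosses). Scn10a and the nociceptor list are above 0 in miR_cKO 1 and controls 1 and 3 and below 0 in the other libraries, whereas the muscle list is above 0 only in controls 2 and 3.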

How the data were processed

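Poly(A) RNA of lumbar ganglia was sequenced as stranded libraries, per the labels' protocols. The submitters' processing notes name Bowtie and mm10. No counting tool, annotation or strand setting is stated. Scn1a, Scn3a, Scn9a, Scn2b and Scn3b overlap an annotated gene on the opposite strand, so reads of the 2 strands may not be told apart. The authors deposited 1 table with a column per library, whose header names no unit. The deposited values were read as RPKM (not distinguishable from FPKM), because among 585 genes with 1 annotated transcript and few reads the smallest value was lower the longer the transcript (Spearman rho -0.898 over genes, which are not independent replicates). Numbers carry a decimal comma. Depth was estimated as the number of reads that made these products of value and length most nearly whole, and the reads behind a gene follow from its longest coding transcript, so both are approximate and cover counting error only. No 2 libraries of a group shared a value above 0.

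Genes with at least 1 RPKM in at least 3 libraries were transformed to log2(RPKM + 1), and miR_cKO was compared with control by limma 3.58.1 in R 4.3.3 (trend and robust settings, Benjamini-Hochberg threshold 0.05 over 13118 genes). Fold changes on this scale understate the change of low genes. The fit was tested on simulated data. Single values were compared by exact permutation tests (SciPy 1.17.1). The alternatives were a pseudocount of 0.1, no filter, other scalings, a muscle covariate, no trend, array weights, a replicate block and leaving out libraries. The text names all 9 channel genes, other family genes (2 are not reported here), the 4 partners with the smallest p and the 3 genes most like each tested channel gene, plus Nalcn and Ank3, which were chosen after their values were seen. The channel genes, lists and tests were chosen with earlier results of these data known. Of the marker lists, Drgx, Hba-a1 and Hbb-bt were not matched, and red cell genes summed to 2856 to 5502 RPKM in miR_cKO and 1477 to 8441 RPKM in controls.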

Additional observations from a re-analysis of the deposited data

How the results depend on the processing

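With 3 libraries a group, no sodium channel gene and no partner gene was called in the planned fit or in any of its 16 alternatives, and depth limits Scn11a and Scn4b. The number of genes called over the whole table, 8 in the planned fit, was 0 with upper quartile scaling, the muscle covariate, no trend, the replicate block or without controls 2 and 3, 2 with median centring and 34 with array weights; the cause was not tested. It was 0 to 2 with 1 library left out. In the limma fits with 0 calls, 395 to 847 genes had an unadjusted p under 0.05. Scn10a, Scn3b and Scn2b kept their sign in all alternatives, of which no filter, no trend and the replicate block cannot alter the estimated change. With the muscle covariate the log2 change was -0.061 for Scn1a, -0.059 for Scn3a, 0.035 for Scn8a, -0.42 for Scn9a, -0.43 for Scn3b, 0.053 for Scn2b and -1.27 for Scn10a. Without controls 2 and 3 it was -0.028 for Scn1a, -0.022 for Scn3a, -0.39 for Scn9a, -0.35 for Scn3b, 0.12 for Scn2b and -1.05 for Scn10a, resting on 1 control. With array weights it was -0.040 for Scn8a. With 1 library left out, changes ranged from -0.0026 to 0.21 for Scn1a, from 0.0024 to 0.24 for Scn3a, from -0.015 to 0.22 for Scn8a and from -0.29 to 0.029 for Scn9a; those of Scn1a were -0.0026 without miR_cKO 1 and -0.0013 without control 2. The share of Scn10a and Scn11a differed by -11.8 to -3.73 percentage points with 1 library left out. Whether the replicate numbers pair the libraries was not settled by the correlation of deviations, which was 0.359, 0.33 and -0.221 for numbers 1 to 3. For miR_cKO 1 it was 0.359 with control 1 and 0.379 with control 3. The replicate block leaves the change of Scn10a at -0.71 by its design, and no sodium channel gene was called with it.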
